A study of Mus musculus with 15 samples.

Results

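Genomic imprinting leaves a gene active from only the copy inherited from the mother or only the copy inherited from the father. The genes described here are 9 imprinted mouse genes, Peg10, Sgce, Peg3, H19, Meg3, Plagl1, Cdkn1c, Mest and Grb10, out of 24421 genes listed in the count table. They were chosen by symbol. Peg10 was noted because it was higher in knockout than in wild-type libraries of female cells, and Sgce because it is its neighbour. That choice used the female knockout and female wild-type values of Peg10, so for all 9 genes the female comparison is given as a description, with no test. All 9 had enough counts to be tested in the other comparisons.

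RNA-seq was done on primary proximal tubule cells, the kidney epithelium that reabsorbs most of the filtered solutes, in culture after 1 passage. The cells came from C57BL/6 mice of either sex whose Diet1 gene was intact (WT) or inactivated (Diet1 -/-, KO). Male WT had 4 libraries, male KO 3, female WT 4 and female KO 4, or 15 in all. The age of the mice is not given in the sources used here. Cells of 3 to 4 mice were pooled for each group and then divided into technical replicates, so each group is a single pool. Each p-value here is set against the variation among libraries made from 1 pool, and differences between mice or between cultures are not covered. Diet1 itself is not analysed here.

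Imprints are set as DNA methylation in the egg or the sperm and are kept in all later cells at control regions that regulate clusters of neighbouring genes. Many imprinted genes act on growth. Genes active from the paternal copy, such as Peg10, Sgce, Mest, Peg3 and Plagl1, sit in clusters with genes active from the maternal copy, such as H19, Meg3, Cdkn1c and, in most tissues, Grb10. The counts do not separate the copies, so every level below is the sum of both. In RNA from a mixture of cells, fewer cells of a type and less RNA per cell cannot be told apart.

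DNA around the start of transcription is shown for 3 genes that passed the test in male KO. Imprint control regions can overlap starts, but whether the regions shown are such control regions was not examined. RefSeq on GRCm38.p6 held a start region for 5 of the 9 genes, namely Peg3, Meg3, Plagl1, Mest and Grb10, and had no entry in the table used for Peg10, Sgce, H19 and Cdkn1c. Each region has 250 bases before and 50 after the start, and for Grb10 and Meg3, which have 2 listed starts each, the one furthest upstream is shown. Capitals mark the hexamer TGCCGC, searched on both strands, which ZFP57, a protein that keeps methylation at imprint control regions, binds when methylated. The Plagl1 region lies at chr10:13090582-13090881 on the plus strand, the Grb10 region at chr11:12037371-12037670 on the minus strand and the Meg3 region at chr12:109540746-109541045 on the plus strand.
Plagl1: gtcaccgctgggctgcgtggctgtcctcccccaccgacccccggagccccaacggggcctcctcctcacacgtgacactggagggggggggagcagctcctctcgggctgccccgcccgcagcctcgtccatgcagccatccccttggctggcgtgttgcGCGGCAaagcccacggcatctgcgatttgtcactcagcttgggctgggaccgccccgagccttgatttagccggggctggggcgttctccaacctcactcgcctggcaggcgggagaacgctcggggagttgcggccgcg
Grb10: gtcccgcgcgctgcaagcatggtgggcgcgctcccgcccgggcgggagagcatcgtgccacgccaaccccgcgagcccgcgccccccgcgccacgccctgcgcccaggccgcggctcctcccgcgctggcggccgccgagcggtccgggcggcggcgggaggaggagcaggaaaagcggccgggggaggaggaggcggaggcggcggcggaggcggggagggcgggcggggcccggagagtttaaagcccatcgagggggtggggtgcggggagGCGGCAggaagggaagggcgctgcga
Meg3: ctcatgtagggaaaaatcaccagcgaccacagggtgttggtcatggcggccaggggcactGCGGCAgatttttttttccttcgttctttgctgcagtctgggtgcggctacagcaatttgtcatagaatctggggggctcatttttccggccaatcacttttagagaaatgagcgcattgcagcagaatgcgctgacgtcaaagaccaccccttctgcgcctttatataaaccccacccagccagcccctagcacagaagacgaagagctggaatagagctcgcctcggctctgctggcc
Each of these regions held the hexamer 1 time, and 11.6% of 32851 start regions of the same length held it on either strand. The other listed start of Grb10 and of Meg3 and the single one of Peg3 held it 0 times, and the 3 listed starts of Mest held it 0, 2 and 2 times. The last 2 Mest regions begin at 30737800 and 30737803 and overlap, so they hold the same 2 matches. The Grb10 region had 45 CpG dinucleotides, the Plagl1 region 26 and the Meg3 region 13, against a median of 7 over all regions. The hexamer itself contains a CpG, so the 11.6% over all regions is not matched to these CpG-richer ones. Their GC content was 80.0%, 70.7% and 53.7%, against a median of 52.7%. A match describes these letters and is not a measured binding site.

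Library totals ran from 17648416 to 30896637 counts, and 13912 genes passed the filter on low counts. Within a group the correlation of log2 CPM was never below 0.996, and between groups it was never above 0.995. Several markers that define the proximal tubule were at or near 0: Slc22a6 and Slc22a8, the organic anion transporters, and Slc34a1, the phosphate transporter, did not exceed 0.152 CPM in any library. Lrp2, the endocytic receptor megalin, reached 22.2 CPM in male WT and 13.1 CPM in female KO. Over 14 proximal tubule markers the summed level in males was 78.3 to 81.8 CPM for WT libraries and 62.7 to 64.1 for KO libraries. In females it was 90.6 to 104 CPM for WT and 57.4 to 59.9 for KO, and 3 markers were at 0 in each group. Most of the female difference in this sum came from Ggt1, at 68.7 CPM in WT and 35.5 in KO, and Lrp2, at 19.5 and 12.1. Of the 6 markers tested, 2 were called lower in female KO, where 18.6% of all genes tested were called lower. A positive log2 difference was seen in 4 of the 6, and the median was 0.11. The summed level of 10 fibroblast markers was 3530 to 3770 CPM for WT and 1850 to 2040 for KO in males, and 3630 to 3910 CPM for WT and 2610 to 2850 for KO in females. Most of this sum came from the collagen genes Col1a1 and Col1a2, at 1770 and 1540 CPM in male WT and 1950 and 1420 in female WT. The other marker lists are given beside the genes they move with.

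Levels of different genes are compared only after division by exon length, as CPM per kilobase. Averaged over the 15 libraries, Grb10 stood first at 31.3, followed by Peg3 at 18.2 and Cdkn1c at 13.6. Plagl1 at 4.08 and Mest at 3.67 followed, then Peg10 at 1.66, H19 at 1.13 and Sgce at 0.864. Meg3 was last at 0.0941 CPM per kilobase. The order was not the same in every group. Peg10 stood above H19 in female KO, at 2.40 ± 0.126 against 0.940 ± 0.365 (SD, n = 4), and below it in female WT, at 0.926 ± 0.0723 against 1.11 ± 0.0733 (SD, n = 4). That swap rests on the female values for which Peg10 was chosen and is only a description. In male WT, Peg10 at 1.55 ± 0.121 and H19 at 1.37 ± 0.192 (SD, n = 4) lay within their spread of each other. Plagl1 was above Mest in male WT, at 5.86 ± 0.796 against 4.57 ± 0.252, and below it in male KO, at 3.99 ± 0.293 against 4.82 ± 0.0639. In female KO the same pair, at 3.24 ± 0.218 and 3.19 ± 0.180, did not differ beyond its spread. All later values are CPM scaled by the TMM method, and a fold change is on the log2 scale with its standard error.

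**Figure D1:**
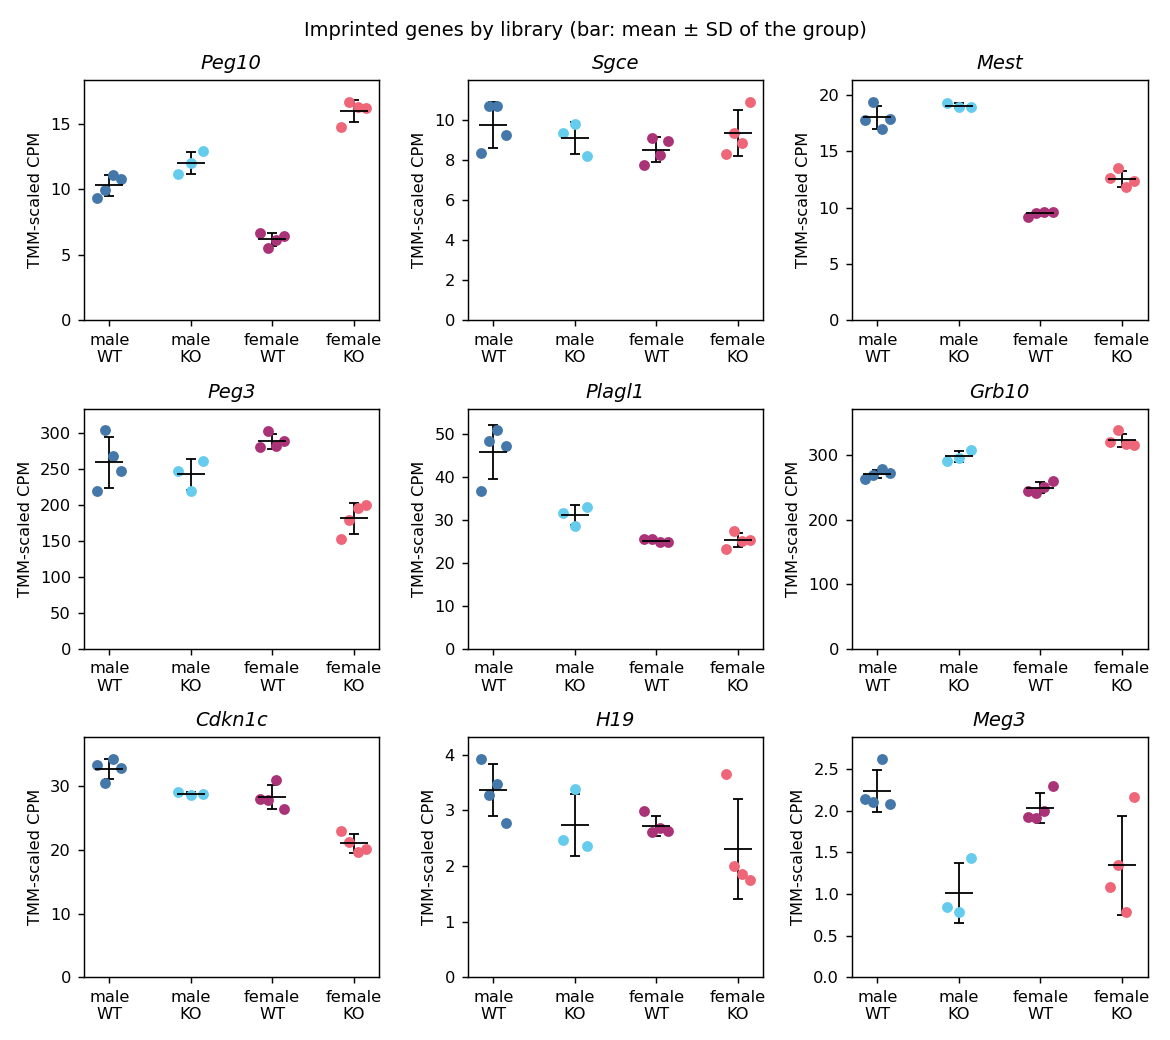
TMM-scaled CPM of the 9 imprinted genes (vertical axis, from 0) in each library of male WT, male KO, female WT and female KO; points are libraries and bars give the mean ± SD of a group. Peg10, chosen for its female values, lies at 14.8 to 16.7 CPM in female KO, while Plagl1 and Meg3 are lower in all male KO libraries than in all male WT libraries.

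Peg10 and Sgce start 99 bases apart on chromosome 6 and are read in opposite directions, and both are active from the paternal copy. Peg10, at 4747306 to 4760517 on the plus strand (GENCODE M21, GRCm38), is a gene derived from a retrotransposon that makes a gag-pol protein and is required for the placenta. In female WT it was at 6.64, 5.53, 6.10 and 6.42 CPM, and in female KO at 14.8, 16.7, 16.3 and 16.2 CPM. Every female KO library was above every female WT library. The means were 6.17 ± 0.482 and 16.0 ± 0.840 CPM (SD, n = 4 each), which is a log2 difference of 1.37 ± 0.084, or 2.59-fold. In male WT it was at 9.35, 9.94, 11.1 and 10.8 CPM and in male KO at 11.2, 12.0 and 12.9 CPM, so the male KO libraries lay just above all male WT libraries. The male log2 difference was 0.23 ± 0.085, with an adjusted p of 0.0569 by edgeR's quasi-likelihood test, which missed the threshold of 0.05. It passed without male WT replicate 3 (adjusted p = 0.0327) or without male KO replicate 1 (adjusted p = 0.0441), and over all alternatives the adjusted p ran from 0.0327 to 0.276. In WT, female libraries were lower than male ones, by a log2 difference of -0.73, given with no test because female WT is the control that the choice of Peg10 used. The order of the groups was thus female WT, male WT, male KO and female KO from low to high.

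Sgce, at 4674350 to 4747207 on the minus strand, encodes epsilon-sarcoglycan, a membrane protein of the dystrophin-associated complex. It was at 8.35, 10.7, 10.7 and 9.23 CPM in male WT and at 9.33, 9.77 and 8.18 CPM in male KO. The female libraries read 7.75, 9.09, 8.25 and 8.96 CPM in WT and 8.27, 9.33, 8.86 and 10.9 CPM in KO. The libraries of WT and KO overlapped in each sex. The log2 difference was -0.09 ± 0.10 in males (adjusted p = 0.614) and 0.14 ± 0.098 in females. The ratio of Peg10 counts to Sgce counts was 0.730 ± 0.102 in female WT and 1.72 ± 0.159 in female KO (SD, n = 4 each), and ran from 0.608 to 0.856 and from 1.49 to 1.83. In males it was 1.07 ± 0.103 in WT (n = 4) and 1.33 ± 0.207 in KO (n = 3). The female ratios repeat the Peg10 values for which it was chosen, so they test nothing about the pair.

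The rest of the region around Peg10 was read from all genes whose start lies within 1 Mb in the annotation. Apart from Sgce, 15 are in the count table and 11 were tested. Of those, 0 were called higher and 5 lower in male KO, where 10.1% of all genes tested were called higher and 10.1% lower. In female KO 4 were called higher and 3 lower, against 20.7% and 18.6% of all genes tested. Tfpi2, an inhibitor of serine proteases that is active from the maternal copy in placenta, fell in males from 17.0 ± 0.990 to 10.3 ± 0.441 CPM, by 0.73 ± 0.089 on the log2 scale (adjusted p = 1.14e-07). In females it rose from 7.84 ± 1.14 to 10.9 ± 0.956 CPM, with a log2 change of 0.47 ± 0.091 (adjusted p = 9.06e-05). Gng11, a G-protein gamma subunit and the next tested gene, changed in the same directions, by -0.27 ± 0.074 in males (adjusted p = 0.00901) and 0.23 ± 0.067 in females (adjusted p = 0.00532). Col1a2, a chain of type I collagen and one of the fibroblast markers, fell in both sexes, by 0.95 ± 0.033 in males and 0.47 ± 0.030 in females. Casd1, a sialic acid acetyltransferase that neighbours Sgce on its far side, fell by 0.18 ± 0.056 in males (adjusted p = 0.0222) and 0.30 ± 0.051 in females. Pdk4, the kinase that switches off pyruvate dehydrogenase, fell by 0.45 ± 0.078 and 0.51 ± 0.073.
On the other side of Peg10, Ppp1r9a, which encodes the actin-binding protein neurabin and is the next tested gene, had log2 differences of -0.01 ± 0.063 in males and -0.14 ± 0.058 in females, and neither passed (adjusted p = 0.941 and 0.0641). Of the paraoxonase genes, which encode lactonases, Pon3 and Pon2 rose in females by 0.18 ± 0.069 and 0.12 ± 0.037 on the log2 scale, and had male differences of 0.04 and -0.01, which did not pass (adjusted p = 0.774 and 0.918). Pon1, at 0.471 to 0.693 CPM by group mean, Asb4, at 1.24 to 1.58 CPM, and Bet1, at 18.5 to 21.7 CPM, passed in neither sex. Among the tested neighbours, female log2 differences ran from -0.51 for Pdk4 to 0.47 for Tfpi2.

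**Figure D2:**
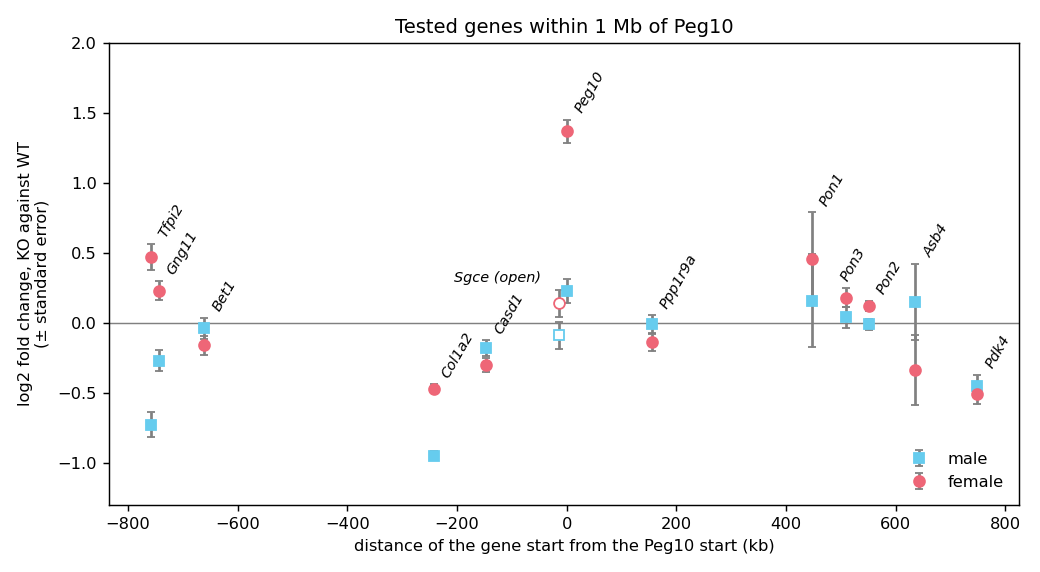
log2 fold change of KO against WT with its standard error (vertical axis) for the tested genes within 1 Mb of Peg10, by distance of their start from that of Peg10 in kb (horizontal axis), with squares for males and circles for females. Sgce is drawn with open symbols slightly left of its position. Tfpi2 and Gng11 lie below 0 in males and above 0 in females, and Col1a2, Casd1 and Pdk4 lie below 0 in both; the female value of Peg10, 1.37, is what it was chosen for.

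In male KO, 1 of the 9 imprinted genes was called higher (Grb10) and 3 lower (Plagl1, Cdkn1c and Meg3), so 4 were called and 5 were not; of all genes tested 20.2% were called in this comparison. KO and WT libraries did not overlap for 5 of the 9 genes in males (Peg10 and Grb10 higher, Cdkn1c, Plagl1 and Meg3 lower), where this held for 27.6% of all genes tested. In females they did not overlap for 5 of 9 (Peg10, Mest and Grb10 higher, Peg3 and Cdkn1c lower), where this held for 36.1% of all genes. Nothing is read from the female count, since that comparison served to choose Peg10. The median log2 difference over the 9 genes was -0.092 in males and 0.012 in females, and the median over all genes tested was close to 0 in both.

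**Figure D3:**
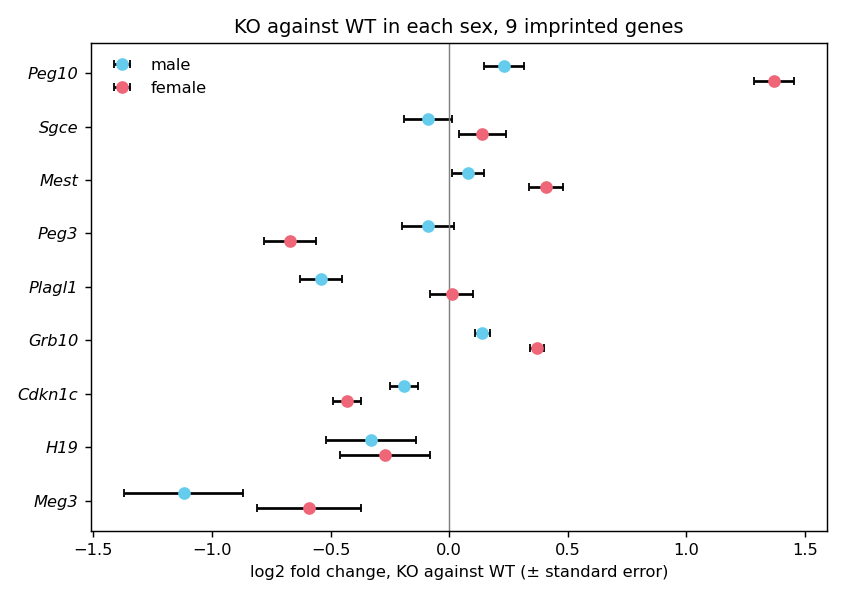
log2 fold change of KO against WT (horizontal axis, with standard error) of the 9 imprinted genes in males and in females. Meg3 lies at -1.12 in males, Plagl1 at -0.54 in males and 0.01 in females, and Grb10 at 0.14 and 0.37; the female value of Peg10 is what it was chosen for.

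Among the genes that code for regulators of growth signalling and transcription, Grb10 was the most abundant per kilobase. It encodes an adaptor that binds the insulin and IGF1 receptors and restrains their signal, and lies on chromosome 11 at 11930508 to 12038683 on the minus strand. Male WT libraries were at 263, 269, 278 and 272 CPM and male KO libraries at 291, 295 and 307 CPM, with no overlap. The difference was small but exceeded the spread, at 0.14 ± 0.032 on the log2 scale (adjusted p = 0.00139). Female WT libraries were at 244, 241, 251 and 260 CPM and female KO libraries at 320, 338, 317 and 315 CPM, a log2 difference of 0.37 ± 0.030. Between the WT groups, Grb10 was lower in females by -0.12 ± 0.030 on the log2 scale (adjusted p = 0.00232). Its order of groups, female WT, male WT, male KO and female KO, was the one seen for Peg10. The Peg10 order rests on the female values for which it was chosen and on a male difference that did not pass. The shared order is therefore only a description.
Grb10 has 2 relatives that are not known as imprinted genes. Grb14, which also binds the insulin receptor, was called higher in both sexes, with log2 changes of 0.22 ± 0.080 in males (adjusted p = 0.0439) and 0.64 ± 0.081 in females (adjusted p = 7.25e-08). Grb7, an adaptor of growth factor receptors of the ERBB family, was at -0.02 ± 0.056 in males (adjusted p = 0.889) and fell by 0.34 ± 0.052 in females.

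Plagl1 encodes a zinc finger transcription factor that slows the cell cycle and regulates other imprinted genes, and lies on chromosome 10 at 13060504 to 13131694 on the plus strand. It was at 36.8, 48.5, 50.9 and 47.2 CPM in male WT and at 31.7, 28.6 and 33.1 CPM in male KO. All male KO libraries were below all male WT libraries, and the fall was 0.54 ± 0.089 on the log2 scale (adjusted p = 0.000204). In females, WT libraries were at 25.7, 25.5, 24.8 and 24.8 CPM and female KO libraries at 23.3, 27.5, 25.2 and 25.4 CPM, and the groups overlapped (log2 difference 0.01 ± 0.091). In WT it was lower in females than in males by -0.85 ± 0.084 on the log2 scale (adjusted p = 3.18e-07). Male WT thus stood above the other 3 groups. Endothelial markers were distributed in a similar way: the summed level of 10 of them was 115 to 129 CPM in male WT, against 53.4 to 59.9 for KO in males and, in females, 44.4 to 52.3 for WT and 49.1 to 65.9 for KO. All 10 were called lower in male KO and all 10 lower in female than in male WT, where 10.1% and 16.0% of all genes tested were called lower. Their part in the Plagl1 result was not tested. The related factors Plag1 and Plagl2 had log2 differences of -0.05 ± 0.15 and 0.11 ± 0.055 in males and passed in neither sex (adjusted p = 0.859 and 0.189 in males, 0.782 and 0.338 in females).

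Mest, on chromosome 6 at 30723547 to 30748465 on the plus strand, encodes an enzyme-like protein of the endoplasmic reticulum of the alpha/beta hydrolase fold and is known as a marker of growing fat tissue. It was at 17.8, 19.4, 17.0 and 17.9 CPM in male WT and 19.3, 18.9 and 18.9 CPM in male KO (log2 difference 0.08 ± 0.066, adjusted p = 0.434). Female WT libraries were at 9.17, 9.52, 9.62 and 9.60 CPM and female KO libraries at 12.6, 13.5, 11.8 and 12.4 CPM. The female KO libraries were thus all above the female WT ones, by 0.41 ± 0.072, and all below the male ones. The difference between the sexes in WT, -0.92 ± 0.068, was the largest of the 7 genes tested for it (adjusted p = 6.25e-13). Podocyte markers and the 10 endothelial markers above were also lower in female than in male WT, with median log2 differences of -0.98 and -1.4. The summed level of 8 podocyte markers in males was 478 to 506 CPM for WT and 407 to 444 for KO. In females it was 310 to 326 CPM for WT and 321 to 363 for KO. All 8 were called lower in female than in male WT, where 16.0% of all genes tested were called lower. The part of podocytes or endothelial cells in the Mest result was not tested. Mest shares 912 exonic bases with Copg2 on the opposite strand. Since the sources used here do not give the strand setting of the counting, reads from the shared bases cannot be assigned with certainty. Copg2 itself, a coat protein subunit, was at 82.6 and 81.7 CPM in male WT and KO and fell from 92.1 to 80.2 CPM in females, the reverse of the Mest values there.

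Peg3, on chromosome 7 at 6703892 to 6730431 on the minus strand, encodes a large zinc finger protein that is known for effects on maternal behaviour and growth. It was at 219, 303, 267 and 246 CPM in male WT and at 246, 219 and 261 CPM in male KO, and these overlapped (log2 difference -0.09 ± 0.11, adjusted p = 0.650). In females, WT libraries were at 280, 302, 281 and 288 CPM and female KO libraries at 152, 178, 195 and 200 CPM. All 4 female KO libraries were lower than all other libraries of the study, and the female difference was -0.67 ± 0.11. In WT the sexes did not pass the test (log2 difference 0.16, adjusted p = 0.299). Of the genes in the Peg3 cluster, Zim1, a zinc finger gene active from the maternal copy, fell in females by 0.91 ± 0.26 on the log2 scale (adjusted p = 0.00503), from 1.68 ± 0.446 to 0.896 ± 0.0332 CPM. Usp29, which is transcribed away from Peg3 from a shared promoter region, was at 1.9 ± 0.852 in female WT and 1.20 ± 0.308 CPM in female KO and did not pass (adjusted p = 0.0634). In males the log2 differences were -0.49 ± 0.29 for Zim1 (adjusted p = 0.258) and 0.21 ± 0.25 for Usp29 (adjusted p = 0.633).

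Cdkn1c encodes p57, an inhibitor of cyclin-dependent kinases that holds cells out of the cell cycle and is abundant in podocytes, and lies on chromosome 7 at 143458339 to 143461050 on the minus strand. Male WT libraries were at 33.3, 30.5, 34.3 and 32.9 CPM and male KO libraries at 29.1, 28.6 and 28.8 CPM, so the groups did not overlap. The fall of 0.19 ± 0.059 on the log2 scale passed (adjusted p = 0.0190). The call was lost without male WT replicate 3 (adjusted p = 0.0585) and without male KO replicate 1, 2 or 3 (adjusted p = 0.0531, 0.0668 and 0.0624). Female WT libraries were at 28.0, 27.9, 31.0 and 26.4 CPM and female KO libraries at 23.0, 21.3, 19.7 and 20.2 CPM, again with no overlap, a log2 difference of -0.43 ± 0.058. In WT it was lower in females by -0.22 ± 0.054 (adjusted p = 0.00227). Of the 8 podocyte markers given above, 2 were called lower in male KO, where 10.1% of all genes tested were called lower. In female KO 3 were called higher and 1 lower, against 20.7% and 18.6% of all genes tested. The part of these markers in the Cdkn1c result was not tested. The other inhibitors of the same family, Cdkn1a (p21) and Cdkn1b (p27), passed in neither sex. Cdkn1a was at 666 ± 7.91 and 659 ± 12.8 CPM in male WT and KO, and at 692 ± 3.77 and 671 ± 18.2 in female WT and KO. Cdkn1b was at 31.7 ± 2.39 and 30.6 ± 0.743 CPM in males, and at 34.9 ± 1.76 and 33.8 ± 2.51 in females.
Cdkn1c lies in a cluster under the control of the antisense RNA Kcnq1ot1. Kcnq1ot1 was at 13.5 ± 3.94 and 13.5 ± 2.12 CPM in male WT and KO (adjusted p = 0.990) and rose from 9.53 ± 1.47 to 14.9 ± 1.38 CPM in females, by 0.64 ± 0.20 on the log2 scale (adjusted p = 0.0240). Kcnq1, the potassium channel gene that it runs through, was at 20.9 ± 2.42 and 18.9 ± 1.96 CPM in males and fell from 25.1 ± 2.87 to 16.5 ± 0.392 CPM in females, by 0.60 ± 0.085 (adjusted p = 3.30e-06). These lie on opposite strands of the same DNA, so without the strand setting their reads cannot be told apart with certainty. Phlda2, a growth-restraining gene of the cluster, was at 0.461 ± 0.180 CPM in male WT and 0.960 ± 0.172 in male KO, a log2 change of 0.99 ± 0.34 (adjusted p = 0.0342). It falls outside the rule for naming genes because its group means in males stay below 1 CPM, and was named after its values were seen.

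H19 and Meg3 are long non-coding RNAs active from the maternal copy. H19, on chromosome 7 at 142575529 to 142578143 on the minus strand, is the host of the microRNA miR-675 and is abundant before birth and low in most adult tissues. It had 39 to 121 counts per library. Male WT libraries were at 3.92, 3.28, 3.47 and 2.78 CPM and male KO libraries at 2.47, 3.38 and 2.36 CPM. In females, WT libraries were at 2.99, 2.61, 2.68 and 2.62 CPM and female KO libraries at 3.65, 2.0, 1.85 and 1.75 CPM. In females, 3 KO libraries were below all WT libraries and KO replicate 1 was above them. The log2 difference was -0.33 ± 0.19 in males (adjusted p = 0.240) and -0.27 in females, which became -0.55 without that replicate. Igf2, the growth factor gene that shares its control region with H19, was between 0.533 and 0.984 CPM by group mean and passed in neither sex (adjusted p = 0.676 in males and 0.318 in females).

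Meg3, on chromosome 12 at 109541001 to 109571726 on the plus strand, is the first transcript of a long run of maternal non-coding RNAs in the Dlk1 cluster. It had 15 to 66 counts per library. Male WT libraries were at 2.14, 2.11, 2.62 and 2.08 CPM and male KO libraries at 0.839, 0.780 and 1.43 CPM. All 3 male KO libraries were below all male WT libraries, and the fall was 1.12 ± 0.25 on the log2 scale, or 2.18-fold (adjusted p = 0.00114). Female WT libraries were at 1.93, 1.91, 2.0 and 2.30 CPM and female KO libraries at 1.08, 1.35, 0.785 and 2.16 CPM, where KO replicate 4 lay among the WT libraries. The female difference was -0.59 ± 0.22, and -0.94 without that replicate. Rian, a non-coding RNA further along the same run, fell in both sexes. It went from 3.26 ± 0.511 to 1.17 ± 0.251 CPM in males, by 1.49 ± 0.20 on the log2 scale (adjusted p = 8.02e-07), and from 2.96 ± 0.391 to 2.09 ± 0.411 CPM in females, by 0.50 ± 0.17 (adjusted p = 0.0157). Dlk1, the paternally active gene of this cluster, a Notch-like membrane protein, was at 0.646 ± 0.294 and 0.830 ± 0.335 CPM in males and 0.672 ± 0.189 and 0.990 ± 0.137 in females and passed in neither sex (adjusted p = 0.452 and 0.145).
Fibroblast markers, whose sums are given above, were also lower in KO of both sexes. Of 9 tested, 8 were called lower in males, where 10.1% of all genes tested were called lower. In females 6 were called lower and 2 higher, against 18.6% and 20.7% of all genes tested. Of 9 markers of smooth muscle and pericytes, 8 were called lower in male KO, against the same 10.1% of all genes tested. Their male sums were 3500 to 3870 CPM in WT and 2970 to 3040 in KO. In female KO 4 were called lower and 2 higher, where 18.6% and 20.7% of all genes tested were called. The female sums were 3850 to 3900 CPM in WT and 3790 to 4370 in KO, so they overlapped while the calls went both ways. Most of these sums came from Acta2, at 1630 and 1810 CPM in female WT and KO, and Tagln, at 1470 and 1530. The part of these cells in the Meg3 and Rian results was not tested.

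In WT cells, 4 of the 7 imprinted genes tested were lower in female than in male libraries (Mest, Plagl1, Cdkn1c and Grb10) and 0 were higher; H19, Peg3 and Meg3 did not pass. Over all genes tested 28.6% were called in this comparison, 12.6% higher in females and 16.0% lower. With library size as the only scaling, the share of calls that were higher in females moved from 44.1% to 55.2%, and these 4 genes remained lower in females. Beside the podocyte and endothelial markers given above, the summed level of 10 leukocyte markers was 21.6 to 26.1 CPM for WT and 32.1 to 34.9 for KO in males, and 35.1 to 41.6 CPM for WT and 45.6 to 56.8 for KO in females.

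A wider list of 61 other genes described as imprinted in mice was examined, of which 60 were in the count table, 5 had no count and 43 were tested. In male KO 3 were called higher and 5 lower, against 10.1% and 10.1% of all genes tested, and the median log2 difference was -0.016. The count of 3 fell to 1 without male WT replicate 2 or without male KO replicate 1, and the count of 5 to 3 without male KO replicate 3. In female KO 12 were called higher and 8 lower, against 20.7% and 18.6% of all genes tested, and the median was -0.027. With library size as the only scaling these counts were 10 and 12, and the share of all female calls that were higher in KO moved from 52.7% to 39.9%. Of 17 tested genes that are active from the paternal copy, 2 were called higher and 2 lower in males, and 4 higher and 1 lower in females. Of 23 active from the maternal copy, 1 was called higher and 3 lower in males, and 7 higher and 7 lower in females. Calls in both classes went in both directions. The log2 KO effect was called higher in females than in males for 8 of the 43 and lower for 5, where 15.6% of all genes tested were called for this difference between the sexes, 9.76% in the first direction and 5.89% in the second.

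Nnat, a paternally active gene for a small membrane protein of the endoplasmic reticulum, rose in both sexes. It went from 1.44 ± 0.0794 to 2.45 ± 0.414 CPM in males, a log2 change of 0.77 ± 0.20 (adjusted p = 0.00534), and from 1.5 ± 0.425 to 3.76 ± 0.553 CPM in females, a change of 1.29 ± 0.17 (adjusted p = 2.38e-07). Its KO libraries lay above its WT libraries in each sex. Zrsr1, a paternally active splicing factor gene, fell in both sexes, by 0.30 ± 0.079 in males (adjusted p = 0.00594) and 0.25 ± 0.073 in females (adjusted p = 0.00669). Airn, the non-coding RNA that silences Igf2r on the paternal copy, rose in males from 2.67 ± 0.472 to 3.81 ± 0.364 CPM (log2 change 0.50 ± 0.15, adjusted p = 0.0164) and was at 3.34 ± 0.193 and 3.09 ± 0.474 CPM in female WT and KO (adjusted p = 0.578). Airn overlaps Igf2r on the opposite strand, so its counts carry the same uncertainty as those of Kcnq1ot1. Htr2a, a serotonin receptor gene, fell in males by 0.31 ± 0.11 (adjusted p = 0.0478) and was at -0.03 ± 0.11 in females. Impact, a regulator of translation that was named after its values were seen, fell in males by 0.28 ± 0.050 (adjusted p = 6.11e-05) and was at -0.08 ± 0.045 in females.
In females, Atp10a, a lipid flippase gene, rose by 0.62 ± 0.060 (adjusted p = 2.27e-10) and Slc38a4, an amino acid transporter gene known for its role in placenta, by 0.55 ± 0.14 (adjusted p = 0.00192). Their male differences were 0.10 ± 0.062 and 0.20 ± 0.16, and neither passed. Trappc9, a protein of vesicle transport, fell in females by 0.25 ± 0.042 (adjusted p = 9.11e-06) and was at -0.02 ± 0.045 in males.

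**Figure D4:**
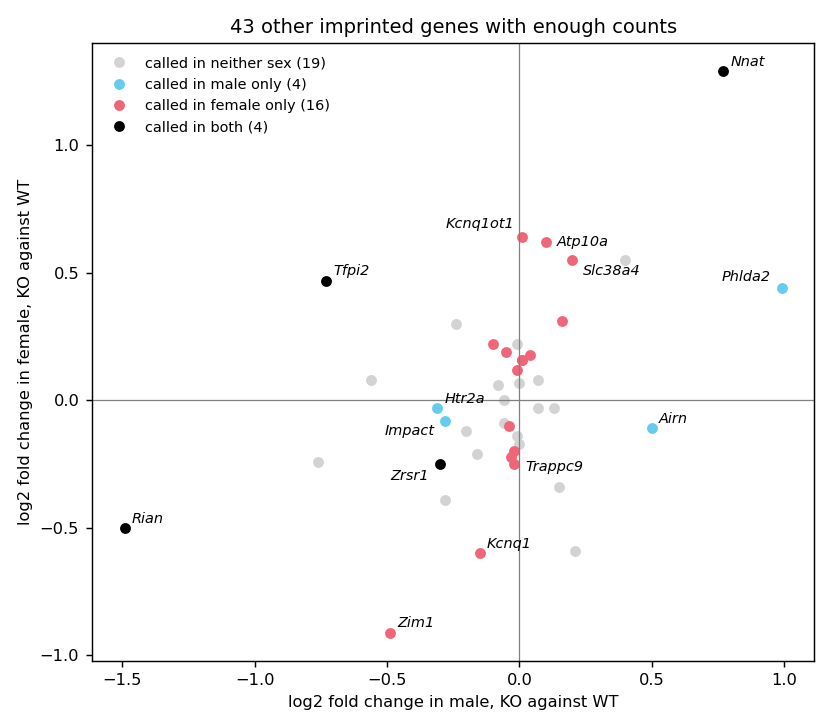
log2 fold change of KO against WT in males (horizontal axis) and in females (vertical axis) for the 43 tested genes of the wider imprinted list, coloured by the sex in which each was called. Nnat lies at 0.77 and 1.29 and Rian at -1.49 and -0.50, each on the same side of 0 in both sexes, while Tfpi2 lies at -0.73 and 0.47; a call in 1 sex does not show that the sexes differ.

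Genes that keep imprints or act on DNA methylation were followed as a list of 17, of which 14 were tested. The list also includes genes that set or oxidise methylation, so its counts mix unlike roles. In male KO 3 rose and 0 fell, where 10.1% of all genes tested were called in each direction. In female KO 3 rose and 2 fell, where 20.7% of all genes were called higher and 18.6% lower, so the female counts are near or below the share over all genes. The same 3 rose in both sexes: Uhrf1, which recognises half-methylated DNA after replication, Hells, a chromatin remodeller needed for DNA methylation, and Dnmt1, the methyltransferase that copies methylation to new DNA. Uhrf1 rose from 44.9 ± 2.56 to 61.1 ± 3.24 CPM in males (log2 change 0.44 ± 0.052, adjusted p = 6.07e-08) and from 32.3 ± 1.95 to 55.3 ± 3.29 CPM in females (0.78 ± 0.051, adjusted p = 2.59e-14). Hells rose by 0.29 ± 0.064 and 0.48 ± 0.062 on the log2 scale. Dnmt1, which the naming rule did not pick, rose by 0.15 ± 0.042 and 0.39 ± 0.040. These 3 genes are also known to be higher in dividing cells. In females Tet1, which oxidises methylated cytosine, fell by 0.66 ± 0.20 (adjusted p = 0.00822) and Zfp445, a zinc finger protein that keeps imprints, by 0.11 ± 0.030 (adjusted p = 0.00423).

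The protein families of Peg10 and Sgce were followed in the same way. Of 18 genes derived from the same class of retrotransposon as Peg10, 10 were in the count table under the symbols searched and 5 were tested. In male KO 1 of them, Cxx1c, fell, by 0.59 ± 0.17 (adjusted p = 0.00965), and in female KO 1 fell, Ldoc1l, by 0.23 ± 0.051 (adjusted p = 0.00038). Over all genes tested, 10.1% were called lower in males and 18.6% in females. Cxx1c has near-identical copies between which reads can be split, so its count is uncertain. Of 14 genes of the sarcoglycan and dystrophin complex, 10 were tested. In males 3 fell and 0 rose, against 10.1% of all genes in each direction. In females 2 fell and 1 rose, which is near or below the 18.6% and 20.7% of all genes called lower and higher. Sspn, the sarcoglycan partner sarcospan, fell by 0.42 ± 0.078 in males and 0.50 ± 0.071 in females. Dag1, dystroglycan, fell by 0.12 ± 0.027 and 0.23 ± 0.025. Sgcb, beta-sarcoglycan, fell in males by 0.24 ± 0.068 (adjusted p = 0.00919) and was at 0.10 ± 0.062 in females, and Sntb2, a syntrophin, rose in females by 0.23 ± 0.062 (adjusted p = 0.00312).

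Likeness between genes was measured as Pearson's r of log2 CPM over the 15 libraries, among 10375 genes whose mean reached 5 CPM. Genes with names that start with Gm and digits or end in Rik were passed over in naming the closest. These values are descriptions: the libraries fall into 4 groups, and any genes that differ between the same groups will correlate. The r values of Peg10 include the female libraries for which it was chosen, so they partly repeat that choice and test nothing about its partners. The 5 genes most like Peg10 were Apbb2 (r = 0.977), Enah (r = 0.976), Dtx4 (r = 0.976), Vcl (r = 0.970) and Cald1 (r = 0.969). Enah, Vcl and Cald1 encode proteins of the actin cytoskeleton and its attachment to the membrane. For Grb10 they were Tll1 (r = 0.982), Vcl (r = 0.980) and Glipr2 (r = 0.973). Peg10 and Grb10 themselves had r = 0.953, while Peg10 had r = -0.787 with Peg3 and r = 0.331 with Sgce.
Plagl1 was most like Cd93 (r = 0.962), Lrrc32 (r = 0.938) and Adgrf5 (r = 0.937), and Cd93 and Adgrf5 are known from endothelial cells. Mest was most like Podxl (r = 0.972), which is one of the podocyte markers above, Hmox1 (r = 0.970) and Txnrd1 (r = 0.961). For Peg3 the genes were Ptprj (r = 0.967), Atp11a (r = 0.964) and Fem1b (r = 0.963), and for Cdkn1c they were Pmp22 (r = 0.944), Cadm4 (r = 0.932) and Kif1a (r = 0.920). Sgce, H19 and Meg3 had no gene as close, with highest values of 0.835 for Xpot, 0.860 for Anapc2 and 0.873 for Mroh1.

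**Figure D5:**
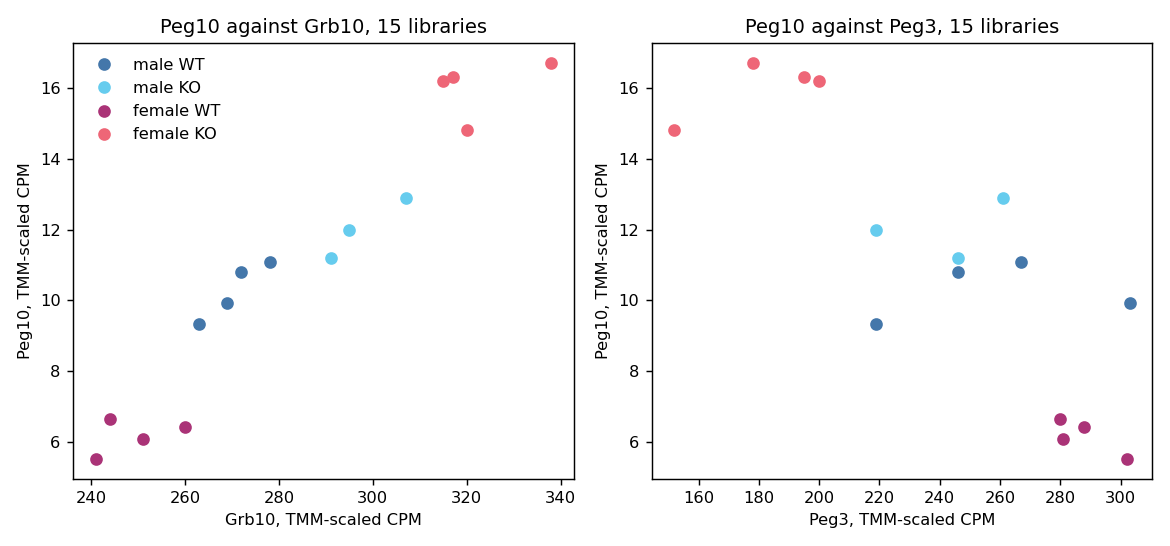
Peg10 (vertical axis) against Grb10 (left panel) and Peg3 (right panel) in TMM-scaled CPM, with 1 point for each of the 15 libraries, coloured by group; neither axis starts at 0. The female KO libraries, at 315 to 338 CPM of Grb10, lie at 14.8 to 16.7 CPM of Peg10, and with Peg3 the same libraries lie at 152 to 200 CPM, below all others. Peg10 was chosen for its female values.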

How the data were processed

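RNA was measured in 15 libraries of 4 groups. The counts are whole numbers for each gene symbol as the authors deposited them. STAR 2.6.1, featureCounts, edgeR 3.26.8, limma 3.40.6 and the build mm10 are named per the submitters' processing notes. The annotation and strand setting of the counting are not given in the sources used here. Libraries were strand-specific and made from mRNA, per the labels' protocols. The deposited CPM values, which equal counts over library totals within 5.1e-11, served only as a check.

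From these counts, edgeR 4.0.16 in R 4.3.3 fitted 1 robust quasi-likelihood model with 4 group means after TMM scaling and filterByExpr (minimum count 10, minimum total 15). Calls need a p below 0.05 after Benjamini-Hochberg adjustment across the 13912 genes tested. A standard error is the log2 estimate divided by the root of F. The common coefficient of variation was 3.59%. At the depths given, a floor of 3 counts is 0.0971 to 0.170 CPM. Fits were tested on simulated data. Positions and exon lengths are from GENCODE M21 on GRCm38, start regions from RefSeq on GRCm38.p6.

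The members and lists were chosen with earlier results of these data known. Genes named beside the 9 were, per sex, up to 4 called higher and 4 lower of the wider imprinted list with at least 1 CPM, up to 2 each way from each companion list (all tested genes for lists of 3 or fewer), the tested genes within 1 Mb of Peg10, and the 5 most like Peg10 (3 for the others). Copg2, Usp29, Igf2, Dlk1, Dnmt1, Phlda2, Impact and single markers fall outside it, and their values were seen first.

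Alternatives were DESeq2 1.42.0 (size factors and test), other scalings, limma-voom (limma 3.58.1), no filter or a stricter filter, separate fits, a block for replicate number, and omission of each library in turn. Male KO has 3 libraries here. Malrd1 (Diet1) was not analysed here.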

Additional observations from a re-analysis of the deposited data

Results flagged for a closer look

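Among the 9 imprinted genes, 27 groups of 4 libraries were examined for a library far from the others, and 2 were found, where chance gives about 1 in 20 groups. H19 was at 3.65 CPM (64 counts) in female KO replicate 1, the highest of its group. Meg3 was at 2.62 CPM (65 counts) in male WT replicate 3, also the highest of its group.

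The KO effect differed between the sexes, by edgeR's test of the difference itself, for 16 of 45 genes that are named from the wider imprinted list, the region of Peg10 and the companion lists; the following values are the female minus the male KO effect on the log2 scale. In the wider imprinted list they were 1.20 for Tfpi2, 0.98 for Rian, 0.52 for Atp10a, 0.20 for Impact, -0.18 for Copg2, -0.23 for Trappc9, -0.45 for Kcnq1 and -0.61 for Airn. Adjusted p-values from edgeR ran from 1.43e-08 for Tfpi2 to 0.0419 for Airn. Near Peg10 they were 0.50 for Gng11 and 0.48 for Col1a2. In the companion lists they were 0.42 for Grb14, 0.34 for Sgcb, 0.33 for Uhrf1, 0.24 for Dnmt1, -0.11 for Dag1 and -0.33 for Grb7. Over all genes tested 15.6% were called for this difference. Many of the 45 genes were named for a called KO effect in 1 sex or both, so their count cannot be compared with that share. Of the wider imprinted list taken whole, 43 genes were tested, and 8 were called higher and 5 lower. For Meg3, whose neighbour Rian is among these genes, and for the other 8 of the first list the difference was not tested. Endothelial markers also differed in their KO effect between the sexes, in 10 of 10 genes.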

How the results depend on the processing

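Of 786 values under alternatives, 770 kept their direction and their side of the threshold, or moved by less than the spread or 1.5 times, and no called value changed sign. The female difference of Plagl1, 0.01, was -0.03 with library size as the only scaling and without female KO replicate 2. The count of imprinted genes higher in male KO, 1 of 9, became 2 with limma-voom and 2 with the replicate block, because Peg10 was added (adjusted p = 0.0474 and 0.0409); without single libraries it ran from 1 to 2, and the count of lower genes from 2 to 3. Other imprinted genes higher in male KO, 3, became 0 under a filter of 5 CPM in at least 3 libraries, where fewer genes are tested. Without single libraries they ran from 1 to 3, with 1 left without male WT replicate 2 or male KO replicate 1, and the lower ones ran from 3 to 5, with 3 left without male KO replicate 3. In females these counts, 12 higher and 8 lower, ran from 10 to 13 and from 7 to 10 without single libraries, and from 10 to 12 and from 7 to 12 under the other settings. With library size as the only scaling they were 10 higher and 12 lower. H19 and Meg3 could not be tested under the stricter filter.

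No label ties a replicate number to a shared batch or day, and deviations of same-numbered libraries correlated at -0.0214 to 0.0910 in 7 pairs, 0 of them over 0.1, so the numbers were not taken to pair the libraries; 9 of 15 libraries correlated best with a library of their own number, which is a hint from the data and not the design. The low counts of Meg3 and H19 limit the precision of their values, and a single pool per group limits every comparison.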
